A study of Mus musculus with 12 samples.

Results

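The report covers 10 mouse genes that are known as targets of Wnt and beta-catenin signalling in the hepatocytes around the central vein. They are Glul, Slc1a2, Lgr5, Rnf43, Znrf3, Axin2, Nkd1, Notum, Tbx3 and Sp5. They were taken by name, with earlier results of these data known, and all 10 were found among the 54839 features of the table and among the 17121 genes that passed the expression filter. Their levels were followed in 12 RNA-seq libraries of hepatocytes sorted from the livers of male p16-Tom mice, in 4 groups of 3 libraries. Every mouse was heterozygous for p16-CreERT2 and for R26-CAG-LSL-tdTomato-WPRE on a C57BL/6 background. In these mice tamoxifen, given at 80 mg/kg, lets the Cre recombinase that is driven by p16Ink4a switch on the red protein tdTomato for good. The Tom- oil and Tom+ oil groups are unlabelled and labelled cells of mice given corn oil. The Tom- CCl4 and Tom+ CCl4 groups are the same fractions of mice given CCl4 (carbon tetrachloride), injected at 1 mL/kg every 3 days over 4 weeks by the study's scheme. Ages were not given in the sources used here, and Tom+ marks p16Ink4a activity at the time of tamoxifen, not the p16Ink4a level at harvest.

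In the liver, endothelial cells of the central vein secrete Wnt proteins, mainly Wnt2 and Wnt9b, together with R-spondin 3. Wnt binds Frizzled receptors and the co-receptors Lrp5 and Lrp6 on the neighbouring hepatocytes, beta-catenin (Ctnnb1) is then spared from degradation, and with TCF and LEF factors it switches on target genes. Several of these targets act back on the pathway, so their transcripts are often used as its readouts. CCl4 is turned into a toxic radical by Cyp2e1, which is made in the same zone, so that its damage is centred on the cells in which these targets are highest.

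All 12 libraries held the defining hepatocyte markers, with a summed level of 10 markers between 109600 and 162500 CPM (counts scaled to the size of the library), and total counts ran from 37568584 to 75331424. The reporter transcript went against the label of 2 oil libraries. It stood at 1794 CPM in Tom- oil replicate 1 and at 135 CPM in Tom+ oil replicate 2, against 143 to 157 CPM in the other Tom- oil libraries and 1225 to 1546 CPM in the other Tom+ oil libraries. In CCl4 it fitted the labels, with 120 to 263 CPM in Tom- and 1316 to 1369 CPM in Tom+. Counts that rest on the 2 oil libraries are therefore given with and without them. Libraries of one treatment with the same number deviated from their group means together in both fractions, and fits in which the number was a block are given for the comparisons of Tom+ with Tom-. In such sorted bulk samples, fewer cells that express a gene and less RNA per cell cannot be told apart. By imaging and single-cell data the study placed labelled cells of CCl4 mice mostly in the zone around the central vein. It stated that its bulk RNA-seq could therefore not separate features of labelled cells from those of their zone.

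Of the 10 genes, 6 were found in the RefSeq table of promoters (build GRCm38.p6, the same chromosomes as mm10), with 7 windows. Lgr5, Znrf3, Notum and Tbx3 were not analysed there. The 250 bases before the transcription start are shown for the 2 genes whose window holds a TCF/LEF word and for Glul and Axin2, 2 genes at the centre of the results. Capitals mark the words CTTTGAT and CTTTGTT, which were searched on both strands with CTTTGAA and CTTTGTA, and the 4 words cannot overlap one another on one strand. The windows are Glul at chr1:153899679-153899928, Slc1a2 at chr2:102706188-102706437, Axin2 at chr11:108920099-108920348 and Sp5 at chr2:70474673-70474922, all on the plus strand.
Glul: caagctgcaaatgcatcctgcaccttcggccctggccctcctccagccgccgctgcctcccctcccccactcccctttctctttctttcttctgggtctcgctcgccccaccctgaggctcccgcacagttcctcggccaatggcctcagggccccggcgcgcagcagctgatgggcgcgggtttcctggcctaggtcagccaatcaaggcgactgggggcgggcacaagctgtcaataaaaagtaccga
Slc1a2: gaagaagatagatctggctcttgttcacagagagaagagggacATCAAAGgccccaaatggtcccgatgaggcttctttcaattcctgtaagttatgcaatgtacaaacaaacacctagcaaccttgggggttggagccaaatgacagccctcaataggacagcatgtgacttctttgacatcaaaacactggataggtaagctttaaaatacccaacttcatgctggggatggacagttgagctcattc
Axin2: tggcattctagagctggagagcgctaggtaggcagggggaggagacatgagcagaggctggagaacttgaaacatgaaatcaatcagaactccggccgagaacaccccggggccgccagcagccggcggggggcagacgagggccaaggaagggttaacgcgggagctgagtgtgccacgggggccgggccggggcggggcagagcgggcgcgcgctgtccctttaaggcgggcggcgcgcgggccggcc
Sp5: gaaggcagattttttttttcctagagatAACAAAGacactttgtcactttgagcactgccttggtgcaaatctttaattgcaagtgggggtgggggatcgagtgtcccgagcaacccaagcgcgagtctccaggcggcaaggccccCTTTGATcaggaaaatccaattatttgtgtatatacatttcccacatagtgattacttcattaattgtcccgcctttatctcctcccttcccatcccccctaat
Sp5 held CTTTGAT on its own strand, 104 to 98 bases before the start, and CTTTGTT on the opposite strand, 222 to 216 bases before it. Slc1a2 held CTTTGAT on the opposite strand, 207 to 201 bases before a start that lies inside the gene as the deposited table places it (chr2:102658659-102790784). No other window of the 10 genes held any of the 4 words, so that 2 of 7 windows did, against 14.8% of all 32851 windows of the table. CTTTGAT alone was in 3.21% and CTTTGTT in 5.03% of all windows. These matches describe letters only.

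Glul (glutamine synthetase, which fixes ammonia) had by far the highest per-length level of the 10 in every group. In TPM (counts divided by feature length and scaled to a common total in each library) its mean was 117 ± 103 in Tom- oil, 56.0 ± 51.5 in Tom+ oil, 86.9 ± 47.5 in Tom- CCl4 and 277 ± 88.9 in Tom+ CCl4 (SD, n = 3). Notum came next in all 4 groups, with 14.7 ± 6.06, 11.99 ± 4.03, 31.3 ± 6.81 and 49.3 ± 6.91 TPM, and its libraries did not overlap those of Glul in any group. Nkd1, Lgr5 and Sp5 took the lowest 3 places in each group, with means from 0.0844 TPM (Sp5 in Tom+ oil) to 2.92 TPM (Lgr5 in Tom+ CCl4). Between these ends most neighbours in the order overlapped. In Tom+ CCl4 the order was Tbx3 (13.3 TPM), Axin2 (9.80), Rnf43 (9.39), Slc1a2 (7.21) and Znrf3 (4.88), and no neighbours among these 5 were separated by their 3 libraries. Axin2 stood seventh in both oil groups, at 1.59 and 1.12 TPM.

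**Figure D1:**
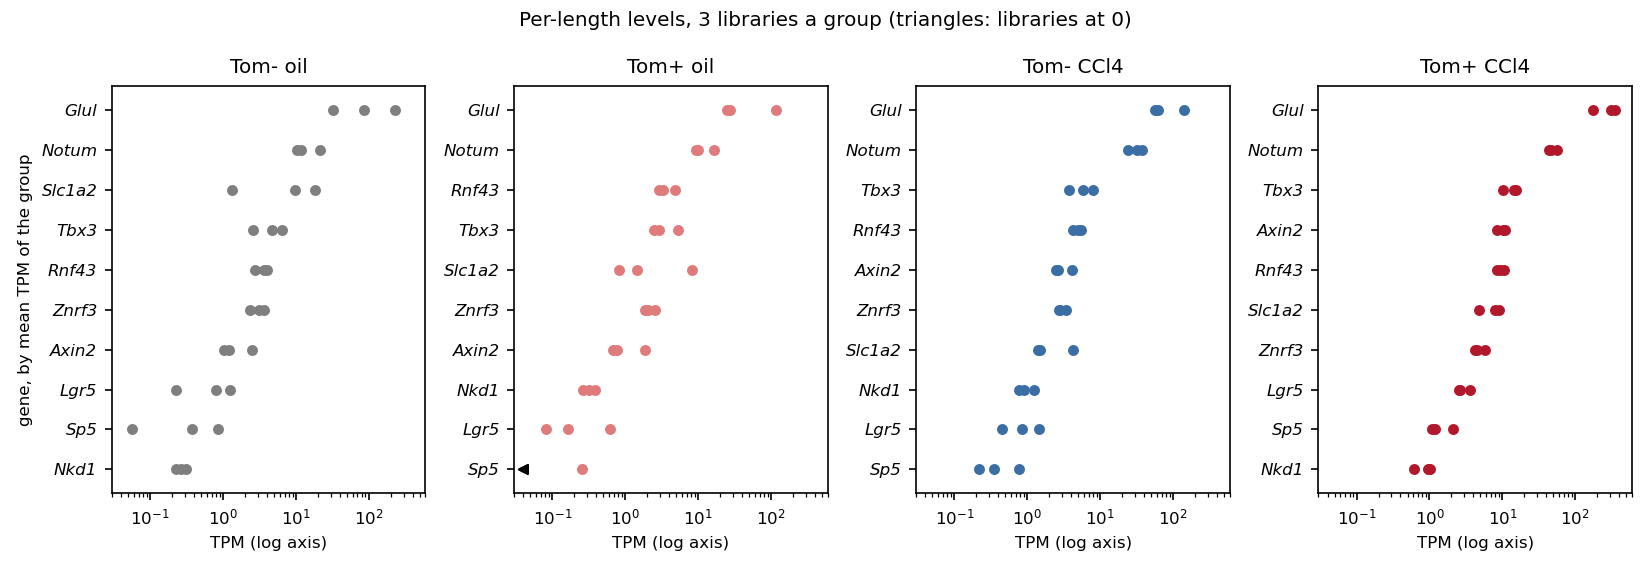
Per-length levels (TPM, log axis) of the 10 genes in the 3 libraries of each group, ordered by the mean of the group; triangles mark libraries at 0. Glul and Notum lead in all 4 groups, and Axin2 moves from the seventh place in both oil groups to the fourth place in Tom+ CCl4.

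Among single libraries, Glul ran from 34.3 CPM to 468 CPM. Its levels were 48.2, 320 and 119 CPM in Tom- oil replicates 1, 2 and 3, and 34.3, 165 and 40.3 CPM in Tom+ oil. They were 84.4, 92.1 and 223 CPM in Tom- CCl4 and 384, 224 and 468 CPM in Tom+ CCl4. Each Tom+ CCl4 library was above each Tom- CCl4 library, narrowly at 224 and 223 CPM where they came closest, and Tom- oil replicate 2 was as high as the Tom+ CCl4 libraries. Slc1a2 (the glutamate transporter GLT-1, which feeds glutamine synthetase) had 7.83, 99.4 and 52.1 CPM in Tom- oil and 4.44, 46.0 and 8.52 CPM in Tom+ oil. After CCl4 it had 8.09, 8.93 and 26.3 CPM in Tom- and 39.2, 24.1 and 47.2 CPM in Tom+. It was the only one of the 10 whose highest library, Tom- oil replicate 2, was an oil library. Its groups overlapped in every comparison, and within Tom- oil its libraries spanned 12.7-fold.

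Lgr5 (a receptor of R-spondins) had the widest span of the 9 genes with counts in all libraries, 43.1-fold. It had 1.03, 5.29 and 3.35 CPM in Tom- oil, 0.347, 2.71 and 0.735 CPM in Tom+ oil, 2.07, 3.84 and 7.14 CPM in Tom- CCl4 and 10.02, 10.06 and 14.9 CPM in Tom+ CCl4. All 3 Tom+ CCl4 libraries were above the other 9. Rnf43 and Znrf3 are membrane ubiquitin ligases that remove Frizzled from the cell surface, and Lgr5 with R-spondin holds them back. Rnf43 had 7.99, 10.9 and 9.91 CPM in Tom- oil, 8.80, 13.6 and 8.47 CPM in Tom+ oil, 14.3, 12.3 and 16.9 CPM in Tom- CCl4 and 25.7, 20.9 and 24.9 CPM in Tom+ CCl4. Znrf3 had 8.15, 12.1 and 10.2 CPM in Tom- oil, 6.17, 6.91 and 8.94 CPM in Tom+ oil, 9.99, 11.9 and 10.03 CPM in Tom- CCl4 and 13.5, 12.8 and 18.7 CPM in Tom+ CCl4. Both ligases were highest in the 3 Tom+ CCl4 libraries, but they spanned only 3.22-fold (Rnf43) and 3.03-fold (Znrf3) over the 12 libraries.

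Axin2, Nkd1 and Notum are feedback inhibitors. Axin2 is a scaffold of the complex that destroys beta-catenin, Nkd1 binds Dishevelled, and Notum is a secreted enzyme that strips Wnt of its lipid. Axin2 had 2.53, 5.76 and 2.78 CPM in Tom- oil, 1.75, 4.50 and 1.64 CPM in Tom+ oil, 6.12, 6.41 and 10.8 CPM in Tom- CCl4 and 21.0, 17.5 and 24.4 CPM in Tom+ CCl4. Notum had 11.2, 21.7 and 11.9 CPM in Tom- oil, 9.16, 17.2 and 10.7 CPM in Tom+ oil, 25.7, 35.0 and 42.8 CPM in Tom- CCl4 and 42.8, 39.95 and 55.5 CPM in Tom+ CCl4. For Axin2 the groups stood in 3 steps, with oil lowest, Tom- CCl4 between and Tom+ CCl4 highest, whereas the 2 CCl4 groups of Notum overlapped. Nkd1 had 0.527, 0.581 and 0.429 CPM in Tom- oil, 0.491, 0.630 and 0.784 CPM in Tom+ oil, 2.48, 1.58 and 1.94 CPM in Tom- CCl4 and 1.65, 1.05 and 1.88 CPM in Tom+ CCl4. It was the only one of the 10 with a higher mean in Tom- CCl4 than in Tom+ CCl4.

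Tbx3 and Sp5 are transcription factors. Tbx3 had 7.57, 17.96 and 13.0 CPM in Tom- oil, 6.85, 14.9 and 8.55 CPM in Tom+ oil, 16.8, 10.9 and 25.2 CPM in Tom- CCl4 and 36.5, 25.5 and 40.7 CPM in Tom+ CCl4. Its Tom+ CCl4 libraries were all above its Tom- CCl4 libraries, by a narrow margin, with 25.2 and 25.5 CPM where they came closest. Sp5 was scarce, with 2, 38 and 16 counts in Tom- oil, 0, 12 and 0 counts in Tom+ oil, 8, 12 and 36 counts in Tom- CCl4 and 134, 44 and 44 counts in Tom+ CCl4. A count of 0 allows up to 3 counts, or 0.0445 CPM in Tom+ oil replicate 1 and 0.0719 CPM in Tom+ oil replicate 3. In CPM the Tom+ CCl4 libraries had 1.65, 0.961 and 0.919, above all 9 others.

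**Figure D2:**
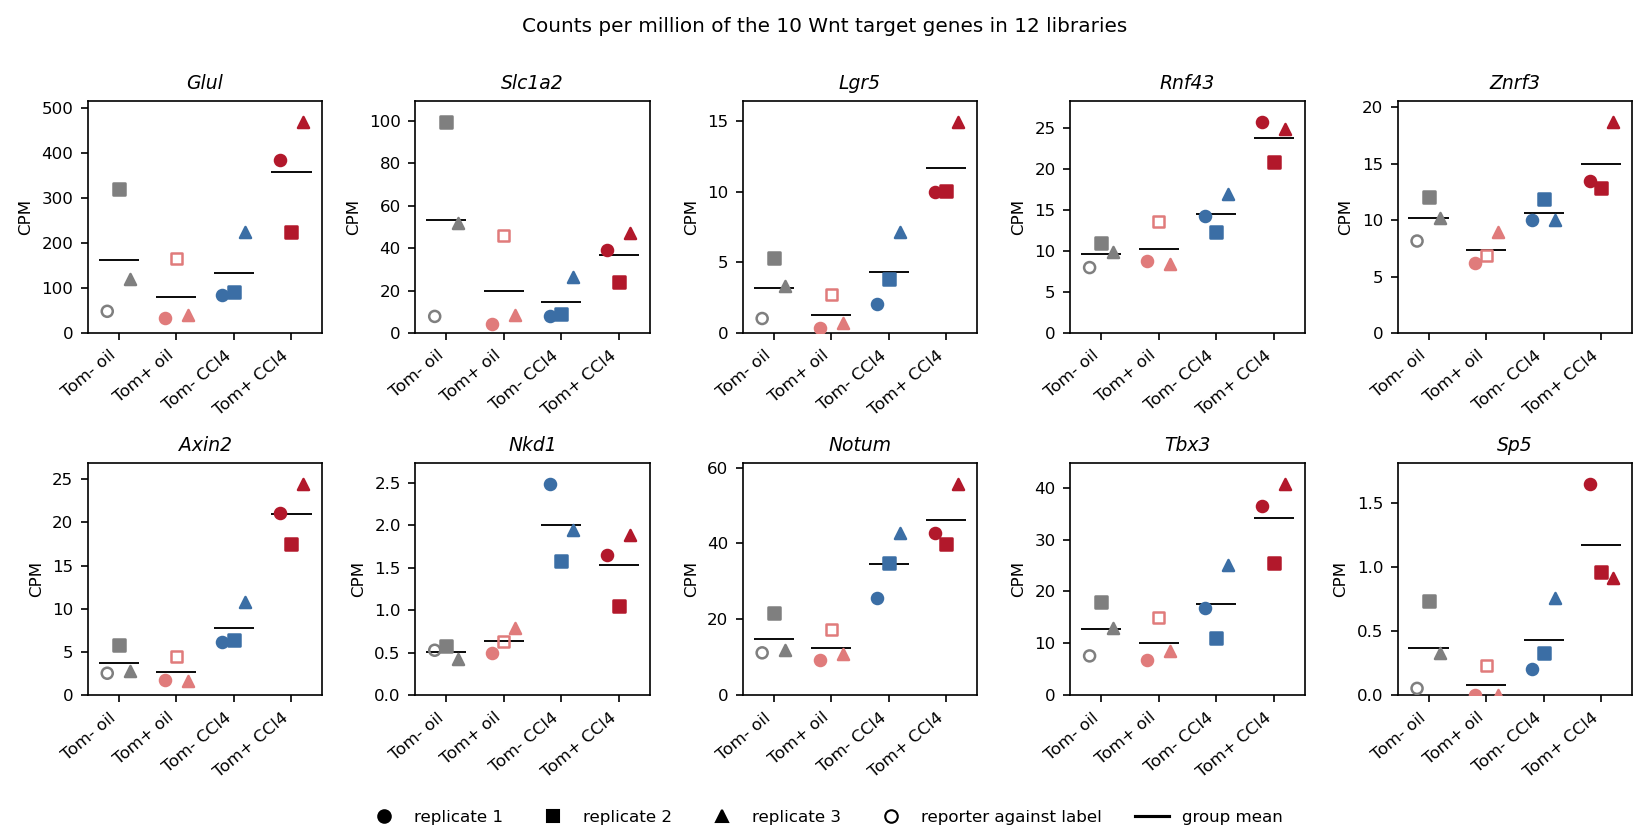
Levels of each gene (CPM, linear axes from 0) in the 12 libraries by group; symbols give the replicate number, open symbols the 2 oil libraries whose reporter goes against the label, and bars the group mean. Apart from Slc1a2 and Nkd1, every gene has its highest group mean in Tom+ CCl4, and replicate 2 is high in both oil groups.

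CCl4 was compared with oil in each fraction with edgeR's quasi-likelihood test over the 12 libraries, and a gene was called at a Benjamini-Hochberg adjusted p under 0.05 and a log2 fold change beyond 0.75. In Tom+ cells 8 of the 10 genes rose and none fell, where 2.9% of the 17121 genes tested rose and 2.34% fell. The median log2 fold change was 1.83 for the 10 genes and 0.0020 for all genes tested. Sp5 rose by 3.92 on the log2 scale (SE 1.09, adjusted p = 0.0421), Lgr5 by 3.21 (SE 0.81, adjusted p = 0.0383) and Axin2 by 2.99 (SE 0.45, adjusted p = 0.00307). Notum rose by 1.90 (SE 0.32, adjusted p = 0.00599) and Tbx3 by 1.76 (SE 0.42, adjusted p = 0.0294). Nkd1, Rnf43 and Znrf3 rose by 1.28 (SE 0.31), 1.21 (SE 0.19) and 1.03 (SE 0.19), with adjusted p = 0.0201, 0.00147 and 0.00415. The 2 genes of glutamine metabolism were not called, with 2.16 for Glul (SE 0.85, adjusted p = 0.161) and 0.91 for Slc1a2 (SE 1.03, adjusted p = 0.654). The 3 Tom+ CCl4 libraries were all above the 3 Tom+ oil libraries for 9 of the 10 genes, all but Slc1a2, as for 14.6% of all genes.

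In Tom+ cells without the 2 oil libraries named above the count was again 8, where 2.09% of genes rose. Glul was then called (3.27, SE 0.66, adjusted p = 0.0383) and Nkd1 was not. Leaving out Tom+ oil replicate 1, Tom+ CCl4 replicate 1 or Tom+ CCl4 replicate 3 brought the count to 4, and leaving out Tom+ oil replicate 3 brought it to 5. Rnf43, Znrf3, Axin2 and Notum were called in each of these fits. The Tom+ oil level of Sp5 rests on replicate 2, since the other 2 libraries were at 0.

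In Tom- cells 2 of the 10 genes rose after CCl4, both of them inhibitors, where 6.33% of all genes rose. Nkd1 rose by 1.96 (SE 0.32, adjusted p = 0.00184) and Notum by 1.21 (SE 0.32, adjusted p = 0.0285). Rnf43 passed the adjusted p of edgeR alone, with a log2 fold change of 0.59 (SE 0.19, adjusted p = 0.0447). Axin2 had 1.07 (SE 0.43, adjusted p = 0.119), Tbx3 0.46 (SE 0.41) and Lgr5 0.43 (SE 0.75). Glul and Slc1a2 had negative values, -0.29 (SE 0.82) and -1.87 (SE 1.06), and Znrf3 was at 0.06 (SE 0.19). Axin2, Rnf43, Nkd1 and Notum had all 3 Tom- CCl4 libraries above all 3 Tom- oil libraries, as had 19.3% of all genes. Without the 2 oil libraries Nkd1 was called and Notum was not, where 4.32% of genes rose. The count was also 1 without Tom- oil replicate 1, Tom- oil replicate 3, Tom- CCl4 replicate 2 or Tom- CCl4 replicate 3, and 3 without Tom- oil replicate 2 or Tom+ oil replicate 2.

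**Figure D3:**
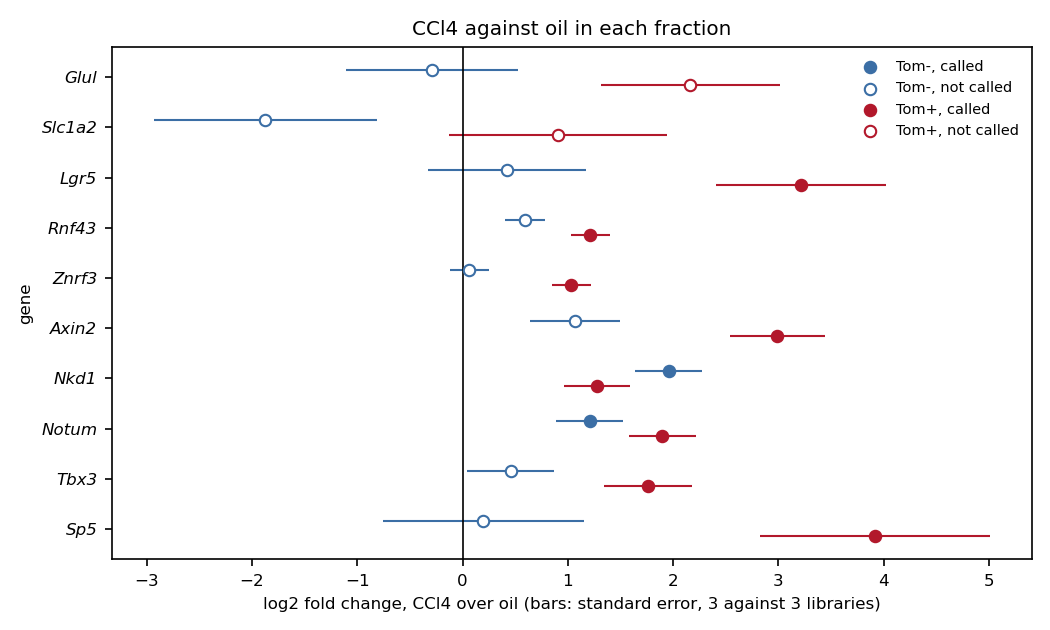
Log2 fold change of CCl4 over oil with its standard error (3 against 3 libraries) for each gene in Tom- and Tom+ cells; filled symbols passed both thresholds. All genes but Nkd1 lie further to the right in Tom+ than in Tom-, with Glul at -0.29 and 2.16 and Sp5 at 0.20 and 3.92.

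CCl4 was also compared with oil as the mean of the contrasts of both fractions. By it 6 of the 10 genes rose, where 6.17% of all genes did. These were Axin2 (2.03, SE 0.31, adjusted p = 0.00148), Lgr5 (1.82, SE 0.55, adjusted p = 0.0422), Nkd1 (1.62, SE 0.22, adjusted p = 0.000300), Notum (1.55, SE 0.22, adjusted p = 0.00124), Tbx3 (1.11, SE 0.29, adjusted p = 0.0245) and Rnf43 (0.90, SE 0.13, adjusted p = 0.000464). With same-numbered Tom+ and Tom- libraries summed, so that each number counted once, Axin2, Rnf43, Nkd1 and Notum were called and Lgr5 and Tbx3 were not, where 3.34% of genes rose. The count was also 4 without Tom+ oil replicate 1, Tom+ oil replicate 3, Tom- CCl4 replicate 3, Tom+ CCl4 replicate 1 or Tom+ CCl4 replicate 3. Without the 2 oil libraries 7 were called, the same 6 and Sp5, where 4.65% of genes rose. For Axin2, Nkd1 and Notum all 6 CCl4 libraries were above all 6 oil libraries, as for 4.16% of all genes. The lowest CCl4 and the highest oil library were 6.12 and 5.76 CPM for Axin2, 1.05 and 0.784 CPM for Nkd1 and 25.7 and 21.7 CPM for Notum.

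Tom+ cells were then compared with Tom- cells of CCl4 mice. Within the 3 numbered pairs, Tom+ was higher for 9 of the 10 genes in every pair, and Nkd1 was lower in every pair. The share of all genes that were higher in every pair was not counted. Glul was 4.55, 2.43 and 2.09 times higher in Tom+ in pairs 1, 2 and 3, and Lgr5 was 4.83, 2.62 and 2.09 times higher. Axin2 was 3.44, 2.72 and 2.27 times higher, and Tbx3 2.17, 2.33 and 1.62 times. Notum differed least of the 9, at 1.67, 1.14 and 1.30 times, and the Nkd1 ratios were 0.666, 0.665 and 0.967. The 3 Tom+ libraries were above the 3 Tom- libraries for 7 genes, all but Slc1a2, Nkd1 and Notum, as for 14.1% of all genes.

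Without a block none of the 10 genes was called in this comparison by edgeR, where 0.222% of genes were called higher. Of the 10 genes 4 had an unadjusted p under 0.05, and the share of all genes with such a p was not counted. Axin2 had 1.43 (SE 0.42, adjusted p = 0.0728), Glul 1.43 (SE 0.83, adjusted p = 0.357) and Lgr5 1.42 (SE 0.74, adjusted p = 0.297). Rnf43 had an adjusted p of 0.0385 in edgeR with a log2 fold change of 0.71, under the threshold of 0.75. DESeq2 called Axin2, where it called 0.395% of genes higher, and so did edgeR without the 2 oil libraries, where 0.24% of genes were called higher. The study itself used DESeq2 with the same thresholds and named Glul and Lgr5 among the zonation markers in its differing genes. Why these calls differ from its own was not tested. With the number as a block 4 genes were called higher, where 0.736% of all genes were. These were Lgr5 (1.54, SE 0.23, adjusted p = 0.000888), Glul (1.51, SE 0.31, adjusted p = 0.0361), Axin2 (1.46, SE 0.14, adjusted p = 2.82e-05) and Tbx3 (1.0, SE 0.12, adjusted p = 0.000112). Rnf43, Znrf3 and Notum passed the adjusted p with log2 fold changes of 0.72, 0.48 and 0.44. Lgr5, Axin2 and Tbx3 were called in all 8 fits with the block, which were the fit of all libraries, the fit without the 2 oil libraries and the fits without each of the 6 pairs. Glul was called in 4 of them and Sp5 in 2. Without the 2 oil libraries and with the block, Lgr5, Axin2, Sp5 and Tbx3 were called, where 0.839% of genes were called higher. Glul was not called without the 2 oil libraries (adjusted p = 0.08003 with the block), without oil pair 2, without CCl4 pair 2 or without CCl4 pair 3.

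**Figure D4:**
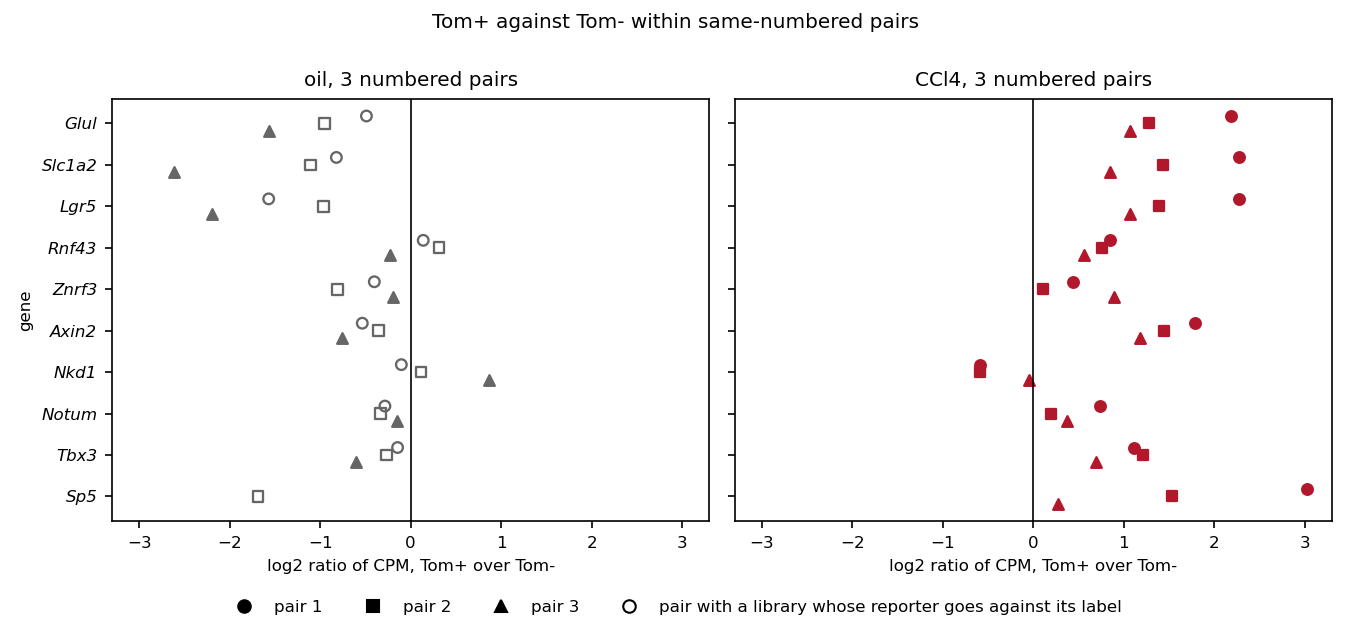
Log2 ratio of CPM of Tom+ over Tom- in each numbered pair, for oil (left) and CCl4 (right); open symbols are the oil pairs with a library whose reporter goes against its label, and Sp5 is drawn only where both libraries had counts. In CCl4 every gene but Nkd1 lies to the right of 0 in all 3 pairs, and in oil most points lie to the left.

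In oil the pairs went the other way for most of the genes. The reporter differed little within pair 1, at 1794 CPM in Tom- and 1546 CPM in Tom+, and within pair 2, at 157 and 135 CPM. In pair 3 it was at 143 and 1225 CPM, so that pairs 1 and 2 do not set cells of low reporter against cells of high reporter. Tom+ was higher for only 1, 2 and 1 of the 10 genes in pairs 1, 2 and 3. The share of all genes that were higher in each pair was not counted here either. Lgr5 was at 0.337, 0.512 and 0.219 of its Tom- level, and Glul at 0.713, 0.516 and 0.338. In pair 3, the only oil pair in which the reporter fitted both labels, Slc1a2 was at 0.164, Axin2 at 0.590 and Tbx3 at 0.660 of the Tom- level, while Nkd1 was 1.83 times higher in Tom+. None of the 10 genes was called by edgeR without a block and none had groups that did not overlap, where 0% of genes were called in either direction, 6.11% had all Tom+ oil libraries above all Tom- oil libraries and 5.57% had them all below. DESeq2 called none either, where it called 0.0523% of genes higher and 0.0959% lower, and Znrf3 alone had an unadjusted p under 0.05 in edgeR. Without the 2 oil libraries edgeR again called none and 0% of genes in either direction. In that fit 8 of the 10 had an unadjusted p under 0.05, but the share of all genes with such a p was not counted. The median log2 fold change of the 10 was then -1.18, against -0.48 with them. That fit sets Tom+ replicates 1 and 3 against Tom- replicates 2 and 3, so that it also compares replicate 1 with replicate 2. With the block added the median was -0.70. With the block Lgr5 fell by 1.47 on the log2 scale (SE 0.28, adjusted p = 0.0332), where 0.169% of genes were called lower. Lgr5 was not called with the block without the 2 oil libraries (adjusted p = 0.0725, where 0.154% of genes were called lower), nor without oil pair 1, oil pair 2 or CCl4 pair 2. Without the 2 oil libraries the oil contrast with the block rests on pair 3 alone.

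The difference between the CCl4 and the oil contrast was itself tested as an interaction. Without a block none of the 10 genes was called, where 0.216% of genes had a higher difference. An unadjusted p under 0.05 was found for 5 of the 10, and the share of all genes with such a p was not counted. DESeq2 called Znrf3 alone, where it called 0.786% of genes. With the block 6 genes were called, where 1.28% of genes were, namely Sp5 (4.07, SE 1.02), Lgr5 (3.01, SE 0.36), Glul (2.51, SE 0.44), Axin2 (1.99, SE 0.21), Tbx3 (1.34, SE 0.17) and Znrf3 (0.95, SE 0.22). By the adjusted p alone 8 genes passed, with Rnf43 and Notum added, where 5.3% of genes passed with a higher difference. Without the 2 oil libraries Lgr5, Axin2 and Sp5 were called without a block, where 0.354% of genes were, and Lgr5, Rnf43, Axin2, Sp5 and Tbx3 with it, where 0.816% were. The oil side of these fits also compares replicate 1 with replicate 2 without the block, and rests on oil pair 3 alone with it. Lgr5, Axin2 and Tbx3 were called in all 8 fits with the block, Sp5 in 6, Znrf3 in 5 and Glul in 3. Nkd1 had the opposite sign, -0.69 (SE 0.42, adjusted p = 0.306 with the block). Sp5 had 0 counts in 2 Tom+ oil libraries, so that the size of its difference is poorly fixed.

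The 10 genes also varied together from library to library. In Tom- oil replicate 2 was the highest for all 10 genes and in Tom+ oil for 8, all but Znrf3 and Nkd1. In both CCl4 fractions replicate 3 was the highest for 8 of the 10. Over the 45 pairs of genes the median Pearson's r of log2 CPM was 0.819 across the 12 libraries, and 44 pairs were positive. After the mean of each group was taken out the median was 0.829 and all 45 were positive. The points share libraries, and Tom+ and Tom- libraries of one number share their deviations, so these values are descriptive. The share of all genes that were highest in these replicates was not counted. Some genes outside the 10 followed Lgr5 as closely within groups, such as Rdh9 (r = 0.982) and Gulo (0.978).

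Single genes departed from this. Slc1a2 had a low median r with the other 9 across the 12 libraries, 0.501, but 0.899 for deviations within groups, and with Glul it reached 0.969 within groups. Nkd1 had a median of 0.569 across libraries and, within groups, the lowest of the 10 at 0.232, and Znrf3 had 0.768 and 0.400. Of the 9 genes with counts in all libraries, the range within a group was widest for Slc1a2, Lgr5 and Glul in oil, at 12.7-, 5.14- and 6.65-fold in Tom- and 10.4-, 7.82- and 4.81-fold in Tom+. In Tom+ CCl4 the same 3 genes spanned 1.96-, 1.49- and 2.09-fold.

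**Figure D5:**
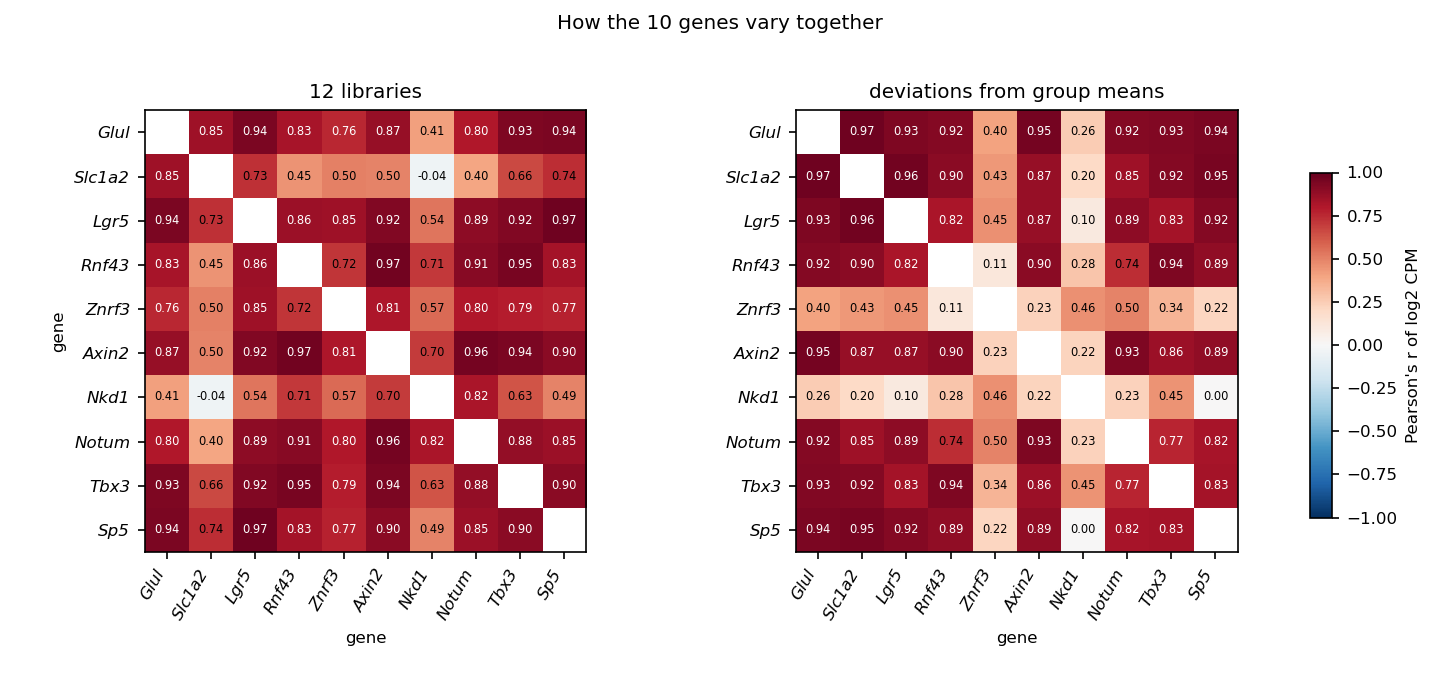
Pearson's r of log2 CPM for each pair of the 10 genes, across the 12 libraries (left) and for deviations from the group means (right). Nkd1 and Znrf3 stand out as pale rows on the right, and Slc1a2 is pale with most genes on the left only.

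Other transcripts that followed the genes most closely over the 12 libraries were ranked by the same r among 13060 genes with a mean of at least 1 CPM. Sp5 lay under this mean and was not ranked, and its own r was 0.970 with Lgr5 and 0.944 with Glul. For Glul the first were Teddm2 (r = 0.989) and Mir8114 (0.987), which overlap Glul exons and cannot be told apart from it by these counts. They were followed by Lgr5 (0.944), Slc13a3 (0.934), Tbx3 (0.933), Bmp7 (0.930), D630039A03Rik (0.930) and Bach2 (0.925). For Lgr5 they included Gulo (0.974), Entpd5 (0.971), Rdh9 (0.966), Lect2 (0.965), Ces2c (0.961), Gm38392 (0.958) and Rdh16f1 (0.957), and none of the first 8 was one of the other 8 ranked genes of the 10. For Axin2 they were Unc13b (0.9796), Gm38392 (0.971), Slc1a4 (0.970), Myadml2os (0.969), Tnfrsf19 (0.968), Rnf43 (0.966), Car2 (0.965) and Notumos (0.964), of which Myadml2os and Notumos overlap exons of Notum. Notum itself came at place 11 for Axin2.

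Other features overlap the exons of 5 of the 10 genes, and the strand setting of the counting was not given in the sources used here. The counts of each such feature were set against those of the gene in the same library, while the number of counts in the shared bases was not measured. The opposite-strand Notumos had own counts equal to 17.5% to 24.6% of the Notum counts, and Myadml2os to 13.7% to 19.4%. Tbx3os1, opposite to Tbx3, had own counts equal to 6.02% to 95.2% of the Tbx3 counts, so that Tbx3 is the least certain of the 10 in this respect. Own counts of Teddm2 equalled 2.31% to 3.66% of the Glul counts, those of Gm13872 2.79% to 7.74% of the Slc1a2 counts and those of Gm11670 0.826% to 6.61% of the Axin2 counts.

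The pathway genes upstream of the 10 were taken from lists by role. Of 19 Wnt ligands 6 passed the filter and 9 had at most 3 counts in every library. Wnt2 had 0.365 ± 0.324 CPM in Tom- oil, 0.166 ± 0.197 in Tom+ oil, 0.988 ± 0.042 in Tom- CCl4 and 0.889 ± 0.317 in Tom+ CCl4 (SD, n = 3). It was the one ligand called, and it rose by 2.0 over both fractions (SE 0.52, adjusted p = 0.0153 by edgeR). Wnt9b and Rspo3 were under 1 CPM in every library, with 2.02 (SE 0.76, adjusted p = 0.0728) and 1.99 (SE 0.85, adjusted p = 0.112) in the same comparison. Wnt5a was called higher in Tom+ than in Tom- of CCl4 mice with the block only (1.06, SE 0.31, adjusted p = 0.0302). Of 2 genes of Wnt secretion, Wls rose after CCl4 in Tom- (1.43, SE 0.42, adjusted p = 0.0345), and Porcn was lower in Tom+ than in Tom- of CCl4 mice with the block only (-0.76, SE 0.18, adjusted p = 0.0126). Wnt2 and Wls kept these calls without the 2 oil libraries, and Wnt9b was then called over both fractions as well.

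Of 17 receptors and co-receptors 11 passed the filter and none was called in any of the 6 comparisons, with or without the block of Tom+ and Tom- numbers. Lgr4, the R-spondin receptor found throughout the lobule, averaged 66.6, 66.4, 55.8 and 49.6 CPM in Tom- oil, Tom+ oil, Tom- CCl4 and Tom+ CCl4. Of 15 cytoplasmic genes 14 passed, and Csnk1e alone was called, higher after CCl4 in Tom- (1.32, SE 0.34, adjusted p = 0.0179). Ctnnb1 averaged 194, 196, 175 and 187 CPM in the 4 groups and was not called. Among 11 nuclear factors Tcf7 rose after CCl4 in Tom+ (2.84, SE 0.41, adjusted p = 0.00146), from 1.26 to 8.97 CPM. Ctnnbip1, an inhibitor of beta-catenin, fell by 0.82 (SE 0.16, adjusted p = 0.00591) in the same comparison. Tcf7l1, a repressor of the TCF family, was lower in Tom+ than in Tom- of CCl4 mice (-1.14, SE 0.23, adjusted p = 0.0145), and Tcf7l2 was not called. With the block Tcf7 was higher in Tom+ than in Tom- of CCl4 mice (1.09, SE 0.22, adjusted p = 0.00477). Csnk1e, Tcf7, Ctnnbip1 and Tcf7l1 kept the calls made without a block when the 2 oil libraries were left out, and Bcl9l was then also called higher after CCl4 in Tom+. Of 14 secreted or surface inhibitors 5 passed, and Frzb was called after CCl4 in both fractions (3.91, SE 0.87 in Tom- and 5.24, SE 1.01 in Tom+), also without the 2 oil libraries.

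Of 10 Wnt targets known from other tissues 6 passed, and 4 rose after CCl4 in Tom-, where 6.33% of all genes did. They were Sox4 (2.75, SE 0.53), Tnfrsf19 (2.45, SE 0.58), Ccnd1 (1.38, SE 0.22) and Myc (1.22, SE 0.32). In Tom+, where 2.9% of all genes rose, Tnfrsf19 rose by 5.12 (SE 0.64) and Ccnd1 by 1.89 (SE 0.22). When the 2 oil libraries were left out, Tnfrsf19 and Myc were not called in Tom- (adjusted p = 0.0705 and 0.0735), and the calls in Tom+ were kept. Tnfrsf19 was also higher in Tom+ than in Tom- of CCl4 mice with the block (1.48, SE 0.19, adjusted p = 0.000218).

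Other genes of the same zone were set beside the 10. Of 25 pericentral metabolic genes 10 rose in Tom+ after CCl4 and none fell, where 2.9% of all genes rose. In Tom- 1 rose (Gstm3) and 2 fell (Oat and Aldh1a1), where 6.33% of all genes rose and 1.59% fell. Tom+ against Tom- of CCl4 mice gave 2 higher without the block (Avpr1a and Ahr) and 8 with it, where 0.222% and 0.736% of all genes were higher. In oil it gave none without the block and 5 lower with it, where 0.169% of all genes were lower with it. These 5 were Oat, Cyp2e1, Lhpp, Gulo and Cyp2c37. Cyp2e1 averaged 2331, 1051, 1163 and 2314 CPM in Tom- oil, Tom+ oil, Tom- CCl4 and Tom+ CCl4. Of 23 periportal genes 13 fell in Tom+ after CCl4 and 10 were lower in Tom+ than in Tom- of CCl4 mice, where 2.34% and 1.74% of all genes did so. Sds averaged 326, 370, 254 and 96.8 CPM and Hal 529, 705, 365 and 204 CPM in the same order. Leaving out the 2 oil libraries, without a block, 12 pericentral genes rose and 14 periportal genes fell in Tom+ after CCl4, none rose and 4 pericentral genes fell in Tom-, and Tom+ against Tom- of CCl4 mice gave 4 pericentral genes higher and 9 periportal genes lower. Of all genes 2.09% then rose in Tom+ after CCl4 and 0.24% were higher in Tom+ of CCl4 mice, while the shares that were lower were not counted. With the block and all libraries 11 periportal genes were lower in Tom+ of CCl4 mice, Hal being added. The share of all genes lower there with the block was not counted. The median log2 fold change of the difference between treatments with the block was 1.19 over the 25 pericentral and -0.79 over the 23 periportal genes.

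Markers of other cell types moved with CCl4. All 12 endothelial markers rose in Tom- and none in Tom+, where 6.33% and 2.9% of all genes rose. Their summed level was 104 to 156 CPM in Tom- oil, 117 to 193 in Tom+ oil, 271 to 293 in Tom- CCl4 and 141 to 190 in Tom+ CCl4. Of 10 stellate or fibroblast markers 9 passed, and 8 rose in Tom- and 5 in Tom+, with sums of 7.62 to 17.4, 9.58 to 25.0, 69.5 to 86.4 and 50.6 to 99.6 CPM. The 9 macrophage markers summed to 13.8 to 72.5, 20.9 to 102, 82.5 to 106 and 44.7 to 116 CPM, and none was called without a block. With the Tom+ and Tom- block Timd4 was called lower in Tom+ of CCl4 mice. With the number of oil and CCl4 libraries as a block 6 were called higher after CCl4 in Tom-, although these numbers do not pair oil with CCl4 libraries. The share of all genes called higher in Tom- with this block was not counted. Of 8 bile duct markers 1 rose in Tom+ after CCl4, and of 7 lymphocyte markers none was called, in the fit without a block. With the 2 oil libraries left out, 11 endothelial and 8 stellate markers rose in Tom-, where 4.32% of all genes did. In Tom+ 5 stellate markers then rose, where 2.09% of all genes did, and no bile duct marker was called. Nkd1, Notum, Wnt2 and Frzb rose after CCl4 beside these sums, and the part of other cells in their levels was not tested. Between Tom+ and Tom- of CCl4 mice the endothelial markers went the other way from the 9 genes, with 6 of 12 lower in Tom+ and none higher. Of all genes 1.74% were called lower there without a block. In the difference between CCl4 and oil 2 endothelial markers were lower without the block and 12 with it, and 3 macrophage markers and 2 stellate markers were lower with it. The share of all genes lower in this difference was not counted.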

How the data were processed

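RNA was measured by strand-specific poly-A RNA-seq of hepatocytes sorted into Tom+ and Tom- from perfused livers. The authors deposited expected counts per gene, of which 30.4% to 32.9% of non-zero values in a library were not whole. The submitters' processing notes name fastp 0.23.2, HISAT2 2.1.0, DESeq2 1.42.1 and mm10, while the counting program, its strand setting and the annotation were not given in the sources used here. The tests had been planned for whole counts, so values were rounded to whole numbers. Total counts of 37568584 to 75331424 put 3 counts at 0.0398 to 0.0799 CPM, which covers counting error only.

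The 10 genes and all lists were chosen with earlier results of these data known. Genes were filtered with filterByExpr (17121 kept) and scaled by TMM, and all 12 libraries were fitted by group with edgeR 4.0.16 (robust quasi-likelihood, R 4.3.3). Standard errors are the log2 fold change over the root of F, and p-values were adjusted by Benjamini-Hochberg over all genes tested. CPM use the scaled library sizes, and correlations use log2 CPM with a prior count of 2. The labels do not say that libraries came from separate mice, so p-values measure only the spread between these samples, which may be technical.

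Same-numbered Tom+ and Tom- libraries correlated in their deviations from the group means at 0.348 to 0.549 in oil and 0.504 to 0.707 in CCl4 over 8560 genes. The pairing was taken from these values, as the labels give only numbers. Same-numbered oil and CCl4 libraries correlated at 0.00904 to 0.304, with values under 0.1 in both fractions. The test was checked on simulated data with 200 changed genes. Other settings tried were another scaling, filters, DESeq2 1.42.0, fewer libraries and blocks. The named genes are the 10 genes, the reporter, up to 5 called genes of each list with the largest changes, Wnt2, Wnt9b, Rspo3, Lgr4, Ctnnb1, Tcf7l2, Cyp2e1, Hal and Sds and, for Glul, Lgr5 and Axin2, the 8 genes most like them, of which 1 is not reported here.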

Additional observations from a re-analysis of the deposited data

Results flagged for a closer look

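The Tom+ against Tom- contrast differed between CCl4 and oil mice for 8 of the 10 genes, by edgeR's test of the interaction with the pair number as a block and an adjusted p under 0.05. By this adjusted p alone 5.3% of all genes had a higher difference, and without the block none of the 10 genes was called. The differences on the log2 scale were 4.07 for Sp5 (adjusted p = 0.0207), 3.01 for Lgr5 (0.000275), 2.51 for Glul (0.0297), 1.99 for Axin2 (7.78e-05), 1.34 for Tbx3 (0.000301), 0.95 for Znrf3 (0.0127), 0.69 for Notum (0.00754) and 0.64 for Rnf43 (0.0216). All were toward a higher Tom+ level after CCl4, and for Notum and Rnf43 the size was under 0.75. The oil side of this difference includes the 2 libraries whose reporter went against the label, and without them Glul (adjusted p = 0.185), Znrf3 (0.224) and Notum (0.147) did not pass with the block. In that fit the oil side rests on oil pair 3 alone, the only oil pair with both libraries left. Whether the label or the reporter is right for these 2 libraries was not tested.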

How the results depend on the processing

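Over the alternatives, 95 of 139 counts of called genes stayed within 1.5 times of the reported count. Of the values of single genes that were called, 241 kept the call and direction and 56 lost the call. No called value changed direction. The pair number as a block gave 4 called genes for Tom+ against Tom- in CCl4, 1 in oil and 6 for their difference, and with the 2 doubted oil libraries also left out it gave 4 and 5 for the first and last. With the block and these libraries left out, the oil side rests on oil pair 3 alone. These libraries left out without a block gave 1 for Tom+ against Tom- in CCl4, 1 for CCl4 in Tom- and 3 for the difference. DESeq2 gave 1 in CCl4 and 1 for the difference, and the adjusted p alone gave 1 in CCl4. No filter on low counts gave 1 for CCl4 in Tom-, 5 in Tom+ and 1 for the difference. Fits of only the 6 libraries compared gave 1 for Tom+ against Tom- in CCl4, 1 for CCl4 in Tom- and 5 in Tom+. The share of all genes called was not counted without the filter, in fits of 6 libraries or with each library or pair left out. Those counts therefore cannot be set against all genes. Numbers shared by oil and CCl4 libraries do not pair them, and as a block they brought CCl4 in Tom+ to 7, where 2.95% of genes rose.

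Leaving out each library in turn gave 0 to 1 called genes in CCl4, 0 to 0 in oil, 1 to 3 for CCl4 in Tom-, 4 to 8 in Tom+, 4 to 7 over both and 0 to 1 for the difference. Leaving out each pair with the block gave 3 to 5 in CCl4, 0 to 1 in oil and 4 to 6 for the difference, so that over both kinds of fit these ran from 0 to 5, 0 to 1 and 0 to 6. The blocked fits without libraries and pairs, and the counts of other gene lists without the doubted libraries, were chosen after seeing the data.

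The signs that turned were of values that had not been called, and the cause was not tested. Leaving out each library in turn gave -0.16 to 0.21 for Rnf43 (negative without Tom- oil replicate 1 or Tom+ oil replicate 2) and -0.59 to 0.10 for Notum (positive without Tom- oil replicate 2) in Tom+ against Tom- of oil. For CCl4 in Tom- it gave -0.88 to 0.67 for Glul (positive without Tom- oil replicate 2), -0.14 to 0.98 for Lgr5 (negative without Tom- CCl4 replicate 3), -0.073 to 0.21 for Znrf3 (negative without Tom- oil replicate 1 or Tom- CCl4 replicate 2) and -0.51 to 1.14 for Sp5 (negative without Tom- oil replicate 1 or Tom- CCl4 replicate 3). Over both fractions it gave -0.87 to 0.33 for Slc1a2 (positive without Tom+ oil replicate 2). Without the 2 doubted oil libraries Rnf43 turned to -0.29, Znrf3 to -0.065, Sp5 to -0.28 and Slc1a2 to 0.076 in the same comparisons, and Glul to 0.022 in Tom- with the oil and CCl4 numbers as a block. Another scaling moved the median of all genes by -0.0061 to 0.0028 on the log2 scale. Depth limits Sp5 most, with 0 to 134 counts a library.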
